A study of Mus musculus with 6 samples.

Results

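The matrix that surrounds chondrocytes holds a small set of abundant proteins beside its collagens, and 10 genes for them were examined here: *Acan*, *Hapln1*, *Comp*, *Matn1*, *Matn3*, *Chad*, *Epyc*, *Ucma*, *Snorc* and *Cnmd*. They were taken by name from the deposited count table, in which each had a single row among 55487 genes. The libraries were made from poly(A) RNA of knee joint cartilaginous tissue of mice at postnatal day 6 (P6), with 3 *Hbb*-cKO and 3 WT replicates. *Hbb*-cKO mice carried a conditional deletion of *Hbb*, the β-globin genes, in chondrocytes, and WT mice are described only as wildtype. The study bred floxed *Hbb* alleles, made on the C57BL/6J background to remove *Hbb-bs* and *Hbb-bt* together, to a tamoxifen-inducible Cre driven by *Col2a1* (its *Hbb*-cKO) or to a Cre driven by *Prx1*, which also acts in other limb mesenchyme. The labels do not say which Cre the sequenced mice carried, whether the WT mice had floxed alleles or tamoxifen, or how many mice a library represents, so p-values measure the spread between these libraries.

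Aggrecan, the product of *Acan*, is a large proteoglycan whose chondroitin sulfate chains draw water into cartilage and let it resist compression. It is held on strands of hyaluronan by the link protein made from *Hapln1*. Adaptor proteins such as the matrilins (*Matn1*, *Matn3*) and cartilage oligomeric matrix protein (*Comp*) connect this network with the collagen fibrils, and leucine-rich proteins (*Chad*, *Epyc*) bind collagen or the cell surface. Many of these genes are targets of SOX9, the transcription factor that sets chondrocyte identity, acting with SOX5 and SOX6.

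Total counts were between 17405688 and 20969914 in *Hbb*-cKO and between 16544800 and 17475496 in WT, and values are given as CPM (counts per 1000000 of a library size adjusted by edgeR's TMM method). *Hbb-bs* and *Hbb-bt* together were at 4195 to 5444 CPM in the *Hbb*-cKO libraries and at 6912 to 16811 CPM in WT. All 9 chondrocyte markers examined (*Col2a1*, *Col9a1* and others) had counts in each of the 6 libraries, as had all markers of skeletal muscle, osteoblasts, tendon, erythroid cells, neutrophils, macrophages, endothelium and adipocytes, so that the libraries held RNA of cartilage and of the tissues around it. *Hbb*-cKO replicate 1 stood apart: the chondrocyte markers summed to 18127 CPM there, against 58661 and 43417 CPM in *Hbb*-cKO replicates 2 and 3 and 34730 to 44280 CPM in WT. The results below are therefore given with and without that library. In bulk tissue, fewer chondrocytes and less RNA per chondrocyte cannot be told apart.

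Promoter sequences are shown for 3 of the genes: *Acan*, to which the others are compared, *Chad*, whose level set it apart from the rest, and *Epyc*, which separated from WT only relative to *Acan*. They are from RefSeq on GRCm38.p6 and run from 250 bases before to 50 bases after a start site, and 8 of the 10 genes had an entry (*Comp* and *Snorc* had none), with 2 start sites for *Epyc*. The searched letters are in capitals: TATAAA, the core of a box that positions the start of transcription, and the letters ACAAAG or ACAATG, cores that SOX proteins can bind. Both strands were searched, and CATTGT stands where the last of these lies on the other strand. The first is the *Chad* promoter at chr11:94564797-94565096 (+ strand).
Chad: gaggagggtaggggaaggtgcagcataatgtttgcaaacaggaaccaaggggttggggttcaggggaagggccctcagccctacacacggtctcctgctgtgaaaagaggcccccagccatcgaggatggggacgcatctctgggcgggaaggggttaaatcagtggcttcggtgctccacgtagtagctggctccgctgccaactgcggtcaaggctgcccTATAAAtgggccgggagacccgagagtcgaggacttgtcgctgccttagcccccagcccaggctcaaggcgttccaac
The *Acan* promoter is at chr7:79052976-79053275 (+ strand).
Acan: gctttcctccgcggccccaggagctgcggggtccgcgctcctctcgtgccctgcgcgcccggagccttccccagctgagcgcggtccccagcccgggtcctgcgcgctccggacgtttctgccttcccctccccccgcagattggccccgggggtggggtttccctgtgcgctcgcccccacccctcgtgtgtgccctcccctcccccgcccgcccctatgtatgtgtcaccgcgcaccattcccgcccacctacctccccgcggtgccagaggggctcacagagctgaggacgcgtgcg
The *Epyc* start sites are at chr10:97643818-97644117 and chr10:97646853-97647152 (both + strand).
Epyc, first start site: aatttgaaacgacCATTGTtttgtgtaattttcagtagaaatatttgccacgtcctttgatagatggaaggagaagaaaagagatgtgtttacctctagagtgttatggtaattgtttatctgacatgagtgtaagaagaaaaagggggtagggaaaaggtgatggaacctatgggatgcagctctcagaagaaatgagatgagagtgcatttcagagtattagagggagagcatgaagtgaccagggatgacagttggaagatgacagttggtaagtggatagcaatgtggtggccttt
Epyc, second start site: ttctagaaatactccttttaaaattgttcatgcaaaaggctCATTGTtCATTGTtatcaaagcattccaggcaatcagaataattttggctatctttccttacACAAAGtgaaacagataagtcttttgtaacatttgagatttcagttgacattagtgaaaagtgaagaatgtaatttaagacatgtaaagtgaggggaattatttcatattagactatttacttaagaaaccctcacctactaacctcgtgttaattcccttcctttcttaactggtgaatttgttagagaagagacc
*Chad* was the only one of the 8 genes with TATAAA in this window, 28 bases before its start site. Of 32851 mouse promoters of the same length, 13.6% hold these letters. ACAAAG or ACAATG was found only at *Epyc*, with ACAATG at the first start site and with ACAAAG and 2 copies of ACAATG at the second, whereas 28.6% of promoters hold either (18.7% ACAAAG and 12.6% ACAATG).

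*Acan* had more counts than any of the other 9 genes in each of the 6 libraries. The gene lies on chromosome 7 (GRCm38, positions 79053483 to 79115099, + strand, ENSMUSG00000030607). It was at 1039, 2768 and 2148 CPM in *Hbb*-cKO replicates 1, 2 and 3, and at 2022, 2050 and 1624 CPM in WT replicates 1, 2 and 3. The WT libraries lay within the range of the *Hbb*-cKO libraries, which held both the lowest and the highest value. The means were 1985 ± 506 CPM for *Hbb*-cKO and 1899 ± 137 CPM for WT (s.e.m., n = 3 each), a log2 fold change of 0.06 with a standard error of 0.33 (edgeR's quasi-likelihood test, adjusted p = 0.971). Its 95% interval, from -0.70 to 0.83, was wide on both sides of 0.

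*Hapln1*, on chromosome 13 (89539796 to 89611652, + strand), encodes the link protein that clamps aggrecan to hyaluronan. It was at 358, 1328 and 777 CPM in the *Hbb*-cKO libraries and at 893, 741 and 735 CPM in WT, so that the WT libraries again lay inside the range of *Hbb*-cKO. The log2 fold change was 0.06 (standard error 0.42, edgeR adjusted p = 0.982). Expressed per 100 counts of *Acan* in the same library, *Hapln1* had 34.4, 48.0 and 36.2 counts in *Hbb*-cKO, against 44.2, 36.2 and 45.3 counts in WT. The groups overlapped. The SD within genotype of this log2 ratio was 0.22, beside 0.68 for the log2 CPM of *Hapln1* and 0.54 for that of *Acan*. Without *Hbb*-cKO replicate 1 the 3 values were 0.22, 0.34 and 0.21, so that the ratio then varied as much as *Acan* itself.

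Among the adaptor proteins, *Comp* (chromosome 8, 70373558 to 70382066, + strand), a member of the thrombospondin family that binds collagen fibrils, was the gene least reduced in *Hbb*-cKO replicate 1 relative to the WT mean. It was at 864, 2037 and 1262 CPM in the *Hbb*-cKO libraries and at 1236, 1407 and 740 CPM in WT, where replicate 3 had the lowest value of the 6 libraries. *Matn1* (chromosome 4, 130944385 to 130955475, + strand) and *Matn3* (chromosome 12, 8947929 to 8972028, + strand) encode matrilins, which form filaments in the cartilage matrix. *Matn1* was at 355, 1799 and 1159 CPM in the *Hbb*-cKO libraries and at 1192, 1497 and 1229 CPM in WT. *Matn3* was at 117, 600 and 358 CPM in the *Hbb*-cKO libraries and at 397, 359 and 277 CPM in WT. For both matrilins *Hbb*-cKO replicates 1 and 2 held the extremes, and the highest library had 5.07 times (*Matn1*) and 5.14 times (*Matn3*) the CPM of the lowest. Log2 fold changes were 0.30 for *Comp*, -0.24 for *Matn1* and 0.06 for *Matn3* (standard errors 0.36, 0.52 and 0.54, edgeR adjusted p = 0.841, 0.923 and 0.986).

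*Chad*, on chromosome 11 (94565047 to 94569127, + strand, ENSMUSG00000039084), encodes chondroadherin, a leucine-rich protein through which chondrocytes can attach to the matrix. It was the only gene of the 10 with CPM values that did not overlap between the genotypes, at 93.4, 151 and 131 CPM in the *Hbb*-cKO libraries and at 249, 271 and 195 CPM in WT. These values rest on 1643 to 3009 counts per library in *Hbb*-cKO and on 3382 to 4463 counts in WT. The means were 125 ± 16.8 CPM for *Hbb*-cKO and 239 ± 22.6 CPM for WT (s.e.m., n = 3 each), a ratio of 0.524. An exact permutation test gave p = 0.1, the smallest that 3 libraries against 3 allow. In edgeR the log2 fold change was -0.93 with a standard error of 0.20 and a 95% interval from -1.40 to -0.46, but with an adjusted p of 0.182 over 17175 genes it was not called. DESeq2 gave a log2 fold change of -0.91 (standard error 0.22) and called it (adjusted p = 0.00648).

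These calls are given beside the share of all genes that met the same rule. None of the 10 genes passed an adjusted p of 0.05 in edgeR, where 0.105% of all genes tested did (18 of 17175). At an unadjusted p under 0.05, *Chad* alone passed among the 10, and 10.1% of all genes passed. Non-overlap of the CPM values was seen for 1 of the 10 genes and for 17.7% of all genes tested, so that these counts among the 10 genes were no higher than the background. DESeq2 called 1 of the 10 genes (*Chad*), against 1.16% of the 20403 genes to which it gave an adjusted p.

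The other leucine-rich gene, *Epyc* (chromosome 10, 97644068 to 97682454, + strand), encodes epiphycan, a small proteoglycan of growth plate cartilage. It was at 47.3, 257 and 176 CPM in the *Hbb*-cKO libraries and at 208, 223 and 159 CPM in WT. With 5.43 times as many CPM in the highest as in the lowest library, it had the widest range of the 10 genes. The log2 fold change was -0.30 with a standard error of 0.56 (edgeR adjusted p = 0.914). *Epyc* shares 1041 exon bases with the antisense lincRNA *Gm10754*, which had 38 counts over all libraries, and whether counting used strand is not stated in the sources at hand.

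*Ucma*, *Snorc* and *Cnmd* encode small or membrane-bound products of chondrocytes. *Ucma* (chromosome 2, 4976122 to 4985748, + strand) encodes a secreted protein rich in γ-carboxyglutamate, and was at 142, 495 and 310 CPM in the *Hbb*-cKO libraries and at 335, 519 and 315 CPM in WT. *Snorc* (chromosome 1, 87470271 to 87475482, + strand) encodes a transmembrane chondroitin sulfate proteoglycan, and was at 188, 416 and 315 CPM in the *Hbb*-cKO libraries and at 416, 538 and 249 CPM in WT. *Cnmd* (chromosome 14, 79637690 to 79662170, − strand) encodes chondromodulin, a glycoprotein that inhibits vessel growth and is made in avascular cartilage, and was at 249, 1135 and 721 CPM in the *Hbb*-cKO libraries and at 704, 793 and 521 CPM in WT. All 3 had their lowest value in *Hbb*-cKO replicate 1, and the genotypes overlapped for each. Log2 fold changes were -0.30, -0.39 and 0.06 for *Ucma*, *Snorc* and *Cnmd* (standard errors 0.44, 0.36 and 0.51, edgeR adjusted p = 0.878, 0.780 and 0.984).

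**Figure D1:**
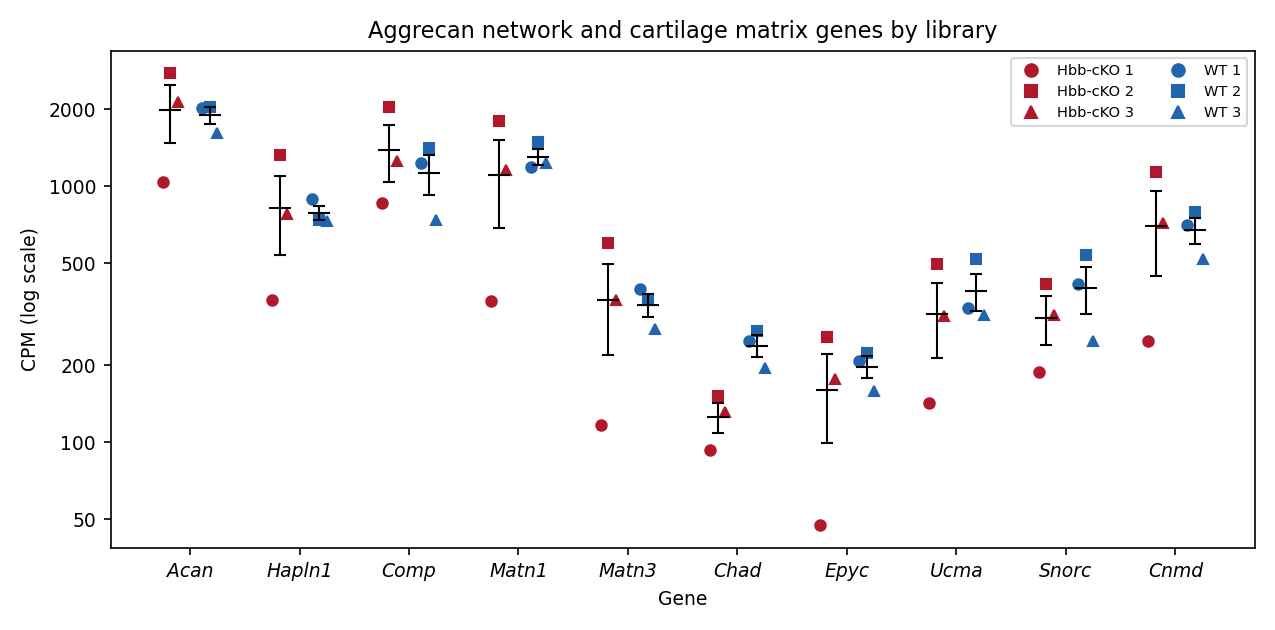
CPM of the 10 genes (log scale) in the 3 Hbb-cKO libraries (red, left of each pair) and the 3 WT libraries (blue, right); black bars are the mean ± s.e.m. Hbb-cKO replicate 1 (red circles) is the lowest library for 9 of the 10 genes, and for Chad all red points lie below all blue points.

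Most of the 10 genes were low or high in the same libraries. *Hbb*-cKO replicate 1 had the lowest CPM for 9 of the 10 genes, with *Comp* the exception, and *Hbb*-cKO replicate 2 had the highest for 7, with WT replicate 2 highest for *Chad*, *Ucma* and *Snorc*. Relative to the WT mean, the median of the 10 genes was -1.37, 0.51 and -0.08 on the log2 scale in *Hbb*-cKO replicates 1, 2 and 3. The median of all genes was within 0.01 of 0 in each, where TMM scaling itself brings it. Their summed level was 3453, 10986 and 7358 CPM in the *Hbb*-cKO libraries and 7652, 8399 and 6045 CPM in WT. The means of these sums were 7266 ± 2175 CPM for *Hbb*-cKO and 7365 ± 694 CPM for WT (s.e.m., n = 3 each), which an exact permutation test did not separate (p = 0.8).

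How far *Hbb*-cKO replicate 1 fell below the other *Hbb*-cKO libraries depended on the gene. Its CPM was 0.218 times the mean of replicates 2 and 3 for *Epyc*, 0.240 times for *Matn1*, 0.244 times for *Matn3* and 0.269 times for *Cnmd*. The share was 0.340 for *Hapln1*, 0.353 for *Ucma* and 0.423 for *Acan*. *Snorc*, *Comp* and *Chad* were least reduced, at 0.514, 0.524 and 0.663 times. The chondrocyte markers were low in the same library (18127 CPM), where the sums for osteoblast (38199 CPM), neutrophil (123 CPM), macrophage (642 CPM), endothelial (556 CPM), adipocyte (1050 CPM) and hypertrophic chondrocyte markers (2586 CPM) were the highest of the 6. The last were at 1984 to 2567 CPM in the other libraries. Macrophage markers reached 635 CPM in WT replicate 2 and adipocyte markers 1028 CPM in *Hbb*-cKO replicate 3, so that the margin was small for these lists too. The part of these tissue differences in the values was not tested.

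Leaving out *Hbb*-cKO replicate 1 moved all 10 fold changes up, and edgeR then called none of the genes, against 0.0738% of all genes. The log2 fold changes were then 0.38 for *Acan*, 0.42 for *Hapln1*, 0.56 for *Comp*, 0.48 for *Matn3* and 0.47 for *Cnmd* (edgeR adjusted p = 0.686, 0.715, 0.712, 0.686 and 0.696). For *Matn1*, *Epyc* and *Ucma* the sign turned, to 0.19, 0.15 and 0.06. *Chad* stayed negative at -0.75 with a standard error of 0.19 (adjusted p = 0.375), and *Snorc* was at -0.13. The median of the 10 log2 fold changes was -0.09 with all libraries, 5 being positive, and 0.28 without *Hbb*-cKO replicate 1, 8 being positive, beside medians of -0.01 over all genes in both fits. For 8 of the 10 genes the sign turned when some single library was left out, and for *Chad* and *Snorc* it did not.

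Per length, the order of the genes differed from that by counts, since the exons of *Acan* add up to 7469 bases and those of *Snorc* to 722 bases. By the WT mean of CPM per kilobase of exon, *Matn1* was first, at 653 ± 48.0, followed by *Snorc* (556 ± 116), *Ucma* (441 ± 73.4), *Comp* (380 ± 67.5) and *Cnmd* (365 ± 43.4). Neighbours among these 5 overlapped over the WT libraries. *Acan* was next, with 254 ± 18.4 CPM per kilobase, below the range of *Cnmd* and above that of *Chad* (142 ± 13.5). *Hapln1* (134 ± 8.73) overlapped with *Chad* above it and with *Matn3* (114 ± 11.7) below it. *Epyc* was last at 76.9 ± 7.58, outside the range of *Matn3*.

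In *Hbb*-cKO, the mean level of *Chad* was 74.4 ± 10.02 CPM per kilobase, against 142 ± 13.5 in WT. By these means its place among the 10 genes was 9 in *Hbb*-cKO and 7 in WT. It was above *Hapln1* in 1 of 3 WT libraries, however, and its *Hbb*-cKO range lay within those of *Matn3* and *Epyc*. *Comp* stood at place 2 in *Hbb*-cKO (468 ± 116 CPM per kilobase) and at place 4 in WT, with overlapping libraries. *Matn1* led both genotypes by the mean and *Epyc* was last in both.

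**Figure D2:**
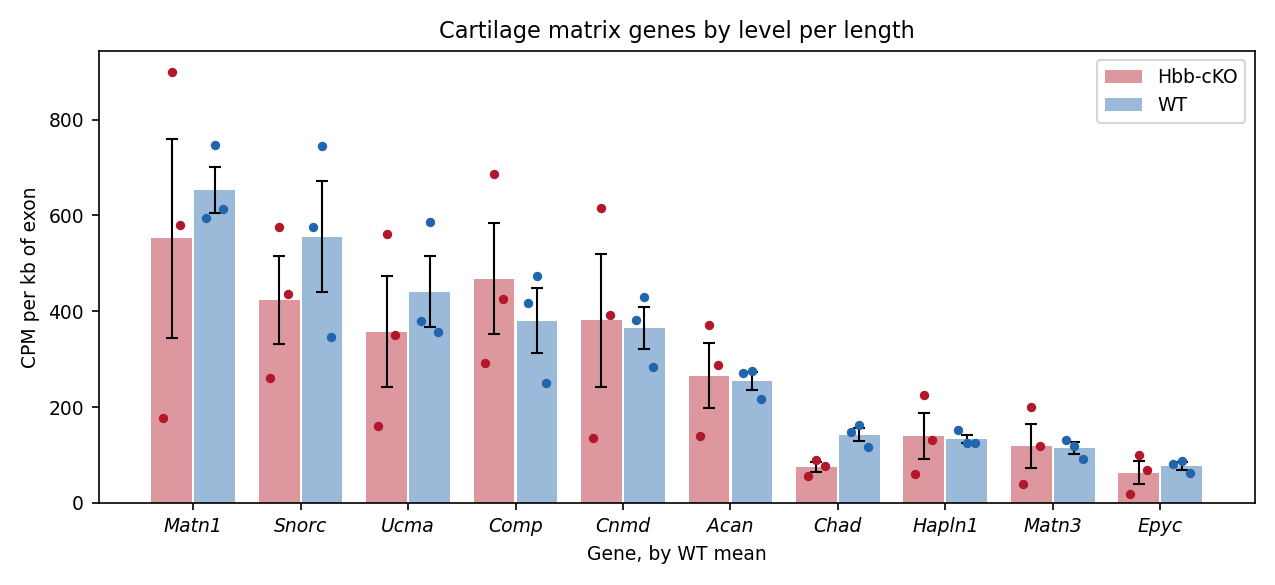
Level per length (CPM per kilobase of exon) of the 10 genes, ordered by the WT mean, in Hbb-cKO (red, left) and WT (blue, right); bars are means, whiskers ± s.e.m. and points the 3 libraries of each genotype. By the mean, Chad is at place 9 in Hbb-cKO (74.4) and at place 7 in WT (142), while Matn1 is first and Epyc last in both. The libraries of Chad overlap with those of neighbouring genes in both genotypes.

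Relative to *Acan* in the same library, the replicates of each of the 9 other genes lay closer together. The pooled SD within genotype of log2 CPM had a median of 0.70 over the 9 other genes, and that of their log2 ratio to *Acan* was 0.29. Over the 10651 genes of at least 10 CPM other than *Acan*, which include these 9, the order was the opposite. The median was 0.18 for CPM and 0.57 for the ratio to *Acan*, which takes in the spread of *Acan* itself (SD 0.54). Without *Hbb*-cKO replicate 1, the medians for the 9 genes were 0.37 for CPM and 0.19 for the ratio. Which genes varied most and least depended on that library. *Chad* had an SD of 0.31 for log2 CPM and 0.27 for the log2 ratio with all libraries, and of 0.22 and 0.089 without *Hbb*-cKO replicate 1. *Epyc* had the largest SD of the 9 on both scales with all libraries (0.92 and 0.39), and 0.31 and 0.096 without that library. *Hapln1* had the smallest SD of the ratio with all libraries, and *Chad* without *Hbb*-cKO replicate 1, where *Comp* had the largest SD of log2 CPM (0.49).

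The genes did not scale with *Acan* in equal measure. When the log2 CPM of *Acan* entered the fit as a covariate (a fit added once the data were known), the slope was 1.72 for *Epyc*, 1.63 for *Matn3*, 1.57 for *Matn1* and 1.53 for *Cnmd*. It was 1.24 for *Ucma* and 1.23 for *Hapln1*, and close to 1 for *Snorc* (0.91) and *Comp* (0.90). *Chad* had the smallest slope, 0.53. These slopes describe 6 libraries, of which *Hbb*-cKO replicate 1 had by far the lowest *Acan*.

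*Chad* and *Epyc* were the 2 genes whose ratio to *Acan* did not overlap between the genotypes, which held for 2 of the 9 genes and for 2.64% of all genes tested. These shares are not directly comparable, since a small spread within genotype makes groups without overlap more likely. The median SD of the log2 ratio was 0.29 for the 9 genes and 0.57 for genes of at least 10 CPM. *Chad* had 8.98, 5.45 and 6.09 counts per 100 of *Acan* in *Hbb*-cKO, against 12.3, 13.2 and 12.0 counts in WT. All 3 WT libraries were thus close together, and the *Hbb*-cKO library nearest to them was replicate 1, the one with the least *Acan*. The means were 6.84 ± 1.09 in *Hbb*-cKO and 12.5 ± 0.368 in WT (s.e.m., n = 3 each, exact permutation p = 0.1, the smallest possible). *Epyc* had 4.55, 9.28 and 8.21 counts per 100 of *Acan* in *Hbb*-cKO, against 10.3, 10.9 and 9.79 counts in WT. Here replicates 2 and 3 of *Hbb*-cKO came near the WT range and replicate 1 lay far below it, with means of 7.35 ± 1.43 in *Hbb*-cKO and 10.3 ± 0.320 in WT (exact permutation p = 0.1, n = 3 each).

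The 7 other genes overlapped between the genotypes relative to *Acan*. *Matn1* had 34.2, 65.0 and 54.0 counts per 100 of *Acan* in *Hbb*-cKO, against 59.0, 73.0 and 75.7 in WT, with only replicate 2 of *Hbb*-cKO inside the WT range. *Snorc* had 18.1, 15.02 and 14.7 in *Hbb*-cKO, against 20.6, 26.3 and 15.4 in WT. *Ucma* had 13.7, 17.9 and 14.5 in *Hbb*-cKO, against 16.6, 25.3 and 19.4 in WT. For *Snorc* and *Ucma* a single *Hbb*-cKO library lay within the range of WT. *Comp* was the gene with a higher mean ratio in *Hbb*-cKO, at 83.1, 73.6 and 58.8, against 61.2, 68.6 and 45.5 in WT. *Matn3* ran from 11.2 to 21.7 in *Hbb*-cKO and from 17.1 to 19.6 in WT, and *Cnmd* from 24.0 to 41.0 in *Hbb*-cKO and from 32.1 to 38.7 in WT. For these 2 genes the *Hbb*-cKO libraries lay on both sides of all WT libraries.

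**Figure D3:**
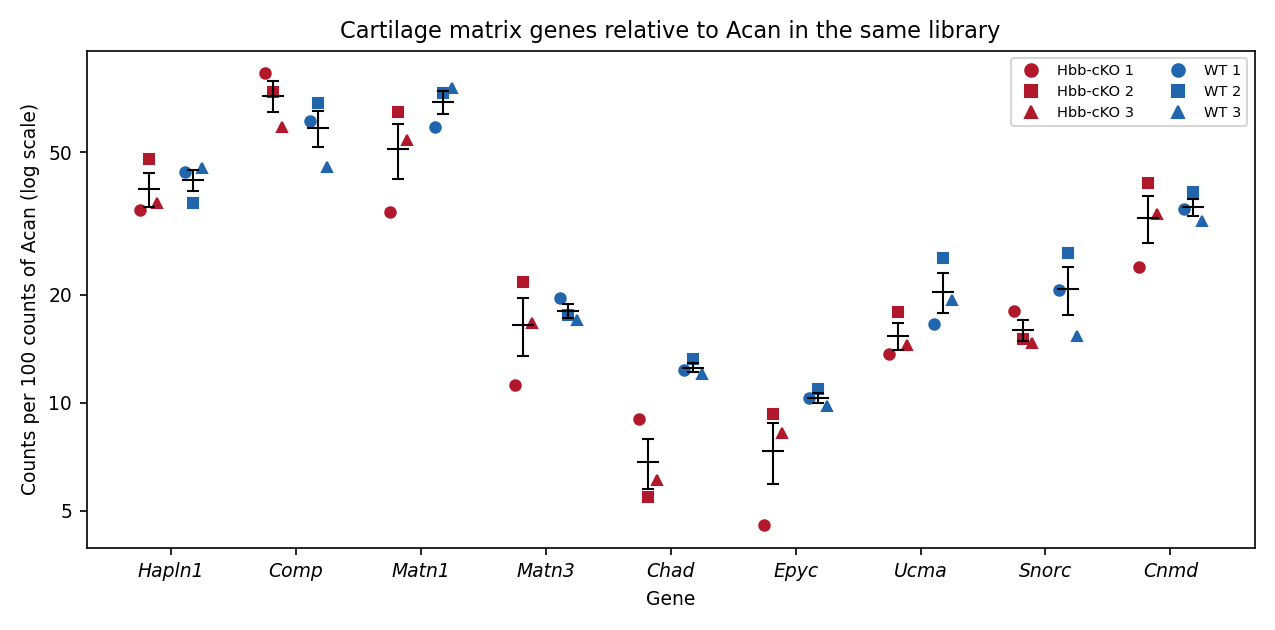
Counts per 100 counts of Acan in the same library (log scale) for the 9 other genes, in Hbb-cKO (red, left) and WT (blue, right); black bars are the mean ± s.e.m. The genotypes separate for Chad (5.45 to 8.98 against 12.0 to 13.2) and Epyc (4.55 to 9.28 against 9.79 to 10.9) and overlap for the other genes.

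In a fit with library sizes set in proportion to *Acan*, edgeR called none of the 9 genes, and 0.163% of all genes other than *Acan* (28 of 17174). At an unadjusted p under 0.05 none of the 9 passed, and 1.72% of all genes did. DESeq2 with the same scaling called none of the 9 either, and 0.0535% of all genes. *Chad* had a log2 fold change relative to *Acan* of -0.87, with a standard error of 0.54 and a 95% interval from -1.93 to 0.18 (adjusted p = 1.00). *Epyc* was at -0.49, *Matn1* at -0.44, *Ucma* at -0.41 and *Snorc* at -0.38, and *Comp* at 0.30, each with a standard error of 0.54 or 0.55. In this fit the spread is shared between genes. The SD within genotype of the log2 ratio was 0.27 for *Chad*, and its median over genes of at least 10 CPM was 0.57. These standard errors thus do not describe the spread of the 9 genes alone. The median of the 9 was -0.38, 1 being positive, where this scaling placed the median of all genes at 0.13. Without *Hbb*-cKO replicate 1 the median of the 9 was -0.22, 4 being positive, and that of all genes was -0.38, so that the median of the 9 lay below that of all genes with that library and above it without.

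Without *Hbb*-cKO replicate 1, *Chad* was called relative to *Acan*. Its log2 fold change was -1.12 (standard error 0.29, 95% interval from -1.68 to -0.55, edgeR adjusted p = 0.00958). *Chad* was the only one of the 9, and 2.25% of all genes were called in that fit. Of these 397 genes, 24 were higher in *Hbb*-cKO. With TMM scaling of the same libraries, *Acan* itself was at 0.38 and *Chad* at -0.75, which was not called (edgeR adjusted p = 0.375). Relative to *Acan*, *Chad* lay below the median of all genes (-0.38), and the 8 others were between -0.48 (*Snorc*) and 0.18 (*Comp*). The call for *Chad* thus depended on leaving out the library with the least *Acan*, and the direction did not: leaving out any library in turn gave -1.12 to -0.73. Without that library the spread of other genes fell as well. The median SD of the log2 ratio over genes of at least 10 CPM went from 0.57 to 0.28, and the standard error of *Chad* from 0.54 to 0.29. With *Acan* as a covariate, the log2 fold change was -0.93 for *Chad* (standard error 0.13, adjusted p = 0.110), -0.53 for *Epyc* (standard error 0.12, adjusted p = 0.241) and -0.47 for *Matn1* (standard error 0.17, adjusted p = 0.436), so none was called in edgeR, where 0.0175% of all genes were.

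**Figure D4:**
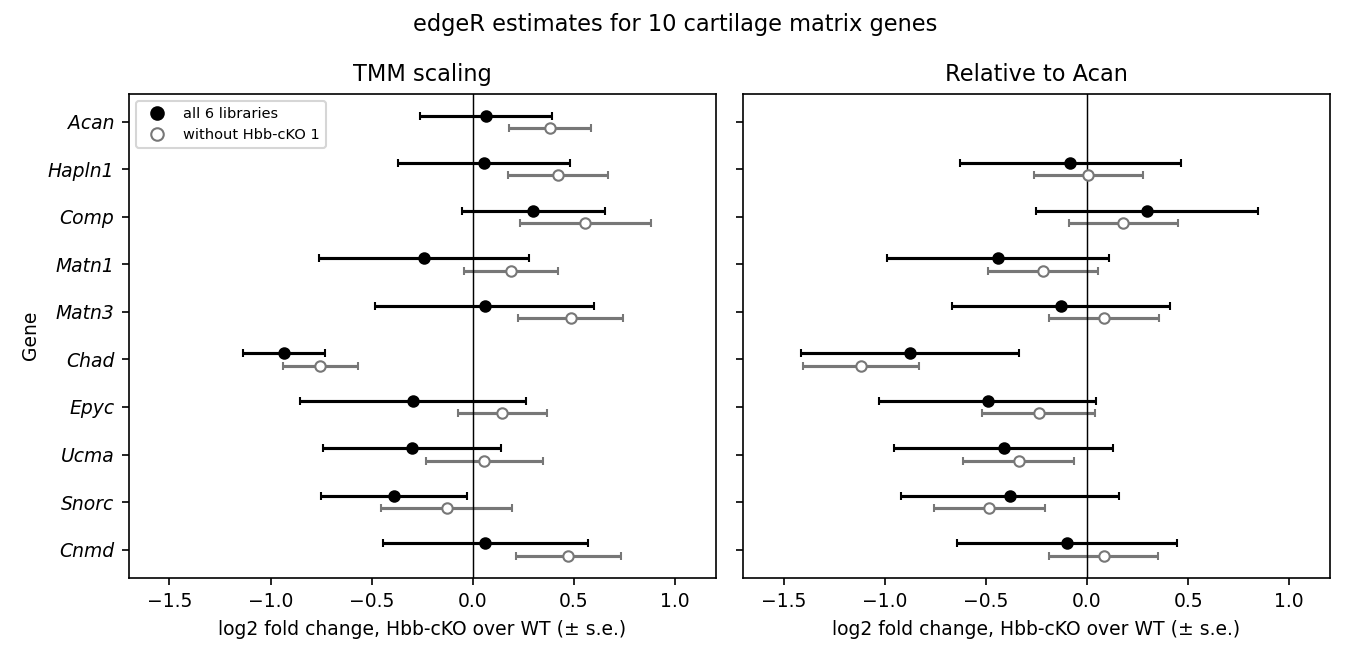
Log2 fold changes (Hbb-cKO over WT, ± standard error) from edgeR for the 10 genes, scaled by TMM (left panel) and relative to Acan (right panel); filled points use all 6 libraries and open points leave out Hbb-cKO replicate 1. Chad lies below 0 in all 4 fits (-0.93, -0.75, -0.87 and -1.12), while Matn1, Epyc and Ucma change sign between the 2 TMM fits.

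Marker levels of other tissues beside the lower *Chad* were as follows. Osteoblast markers (7 of 7 measured) summed to 24876 to 38199 CPM in the *Hbb*-cKO libraries and to 21028 to 23982 CPM in WT, without overlap. Nearly all of that sum was *Col1a1*, which is also a collagen of tendon and other connective tissue (log2 fold change 0.54, edgeR adjusted p = 0.434). Without it the sums were 381 to 618 CPM in the *Hbb*-cKO libraries and 356 to 437 CPM in WT, which overlapped. *Bglap* and *Bglap2* had log2 fold changes of -0.44 and -0.78. Those of *Alpl*, *Dmp1*, *Sp7* and *Phex* were 0.34, 0.21, 0.20 and 0.08. Endothelial markers (5 of 5) summed to 487 to 556 CPM in the *Hbb*-cKO libraries and to 385 to 461 CPM in WT, without overlap. Neutrophil markers summed to 26.5 to 123 CPM in the *Hbb*-cKO libraries and to 17.2 to 37.4 CPM in WT, and all 8 had a positive log2 fold change, with a median of 1.79, 7 at an unadjusted p under 0.05 and none called. Skeletal muscle markers summed to 23886 to 33258 CPM in the *Hbb*-cKO libraries and to 29626 to 47712 CPM in WT, 1 of 8 being positive, with a median log2 fold change of -0.37. Macrophage markers (496 to 642 CPM in the *Hbb*-cKO libraries, 450 to 635 CPM in WT) and adipocyte markers (653 to 1050 CPM in the *Hbb*-cKO libraries, 543 to 823 CPM in WT) overlapped. Erythroid markers (7 of 7), which include the deleted genes, summed to 8804 to 11748 CPM in the *Hbb*-cKO libraries and to 13458 to 36864 CPM in WT. Chondrocyte markers (9 of 9), hypertrophic chondrocyte markers (6 of 6) and tendon markers (7 of 7) overlapped between the genotypes, the last at 4623 to 5015 CPM in the *Hbb*-cKO libraries and 3992 to 5408 CPM in WT. No marker was at 0 in any library, and the part of these tissues in the level of *Chad* was not tested.

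*Col2a1* and *Sox9*, taken as markers of cartilage, were also set against *Acan*. *Col2a1*, the collagen of cartilage fibrils, had 1088 to 1383 counts per 100 of *Acan* in *Hbb*-cKO and 1291 to 1430 in WT, and *Sox9* had 4.396 to 5.54 in *Hbb*-cKO and 4.83 to 5.14 in WT. The SD within genotype of the log2 ratio was 0.14 for *Col2a1* and 0.12 for *Sox9*, below that of each of the 9 genes. Without *Hbb*-cKO replicate 1 it was 0.067 for *Col2a1* and 0.0996 for *Sox9*, the last above *Chad* (0.089) and *Epyc* (0.096). By this SD, which takes in the spread of the 6 libraries within genotype and no difference between the genotypes, the genes that followed *Acan* most closely among 10651 were *Slc2a1* (SD 0.06), which encodes a glucose transporter, *Efna1* (0.07), an ephrin ligand, and *Trpv4* (0.07), a calcium channel of chondrocytes. *Itih5l-ps*, *Col11a2*, *Fam180a*, *Sox9* and *Meltf* followed, with SDs of 0.08 to 0.13. *Hapln1* was at place 54 and the 8 other genes at places 84 (*Ucma*) to 368 (*Epyc*).

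Among these close followers of *Acan*, *Efna1*, *Meltf* and *Fam180a* also had ratios that did not overlap between the genotypes. *Efna1* and *Meltf* were lower in *Hbb*-cKO, and *Fam180a* was higher. *Efna1* had 1.25 to 1.40 counts per 100 of *Acan* in *Hbb*-cKO and 1.95 to 2.09 in WT, and *Meltf* had 5.30 to 6.58 in *Hbb*-cKO and 7.51 to 8.47 in WT. *Fam180a* had 3.01 to 3.69 in *Hbb*-cKO and 2.66 to 3.00 in WT. None of them was called by level in edgeR (log2 fold change -0.58, adjusted p = 0.617 for *Efna1*, -0.36, adjusted p = 0.830 for *Meltf*, and 0.28, adjusted p = 0.817 for *Fam180a*). All were named for a small spread within genotype, which makes groups without overlap more likely.

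The relatives of these genes outside the set did not follow *Acan* as a rule. *Tnmd*, the tendon relative of *Cnmd*, had an SD of 0.17 for log2 CPM and 0.63 for its log2 ratio to *Acan*. *Thbs4*, a thrombospondin like *Comp* (0.18 and 0.62), *Ogn*, a leucine-rich proteoglycan like *Epyc* (0.09 and 0.62), *Vcan*, a hyaluronan-binding proteoglycan like *Acan* (0.08 and 0.59), and the matrilin *Matn2* (0.07 and 0.50) were alike in this. Without *Hbb*-cKO replicate 1 the SDs were 0.16 and 0.23 for *Tnmd*, 0.20 and 0.35 for *Thbs4*, 0.068 and 0.27 for *Ogn*, 0.072 and 0.24 for *Vcan*, and 0.078 and 0.16 for *Matn2*, so that the order held. For *Matn4* it turned, at 0.38 and 0.50 with all libraries and 0.43 and 0.28 without that library. *Hapln3* (0.33 and 0.31) was low, at 1.82 to 3.46 CPM in the *Hbb*-cKO libraries and 2.34 to 2.61 CPM in WT. *Chadl*, a relative of *Chad*, varied less relative to *Acan*, with an SD of 0.66 for log2 CPM and 0.23 for the ratio (0.38 and 0.25 without *Hbb*-cKO replicate 1). It had 6.71 to 7.67 counts per 100 of *Acan* in *Hbb*-cKO and 8.53 to 12.6 in WT, without overlap, while its CPM overlapped (69.7 to 211 in *Hbb*-cKO and 145 to 258 in WT). Its log2 fold change relative to *Acan* was -0.45 with a standard error of 0.54, and with *Acan* as a covariate it was -0.44 (standard error 0.17, edgeR adjusted p = 0.469).

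Of the related gene lists, none had a gene past the threshold in edgeR. For the hyaluronan and hyalectan genes, 14 of 16 were tested, 7 were positive and the median log2 fold change was -0.01, the same as over all genes. Their smallest p-values were those of *Hmmr*, a hyaluronan receptor that also acts at the mitotic spindle (mean 18.4 CPM in *Hbb*-cKO, against 11.6 CPM in WT, log2 fold change 0.67, adjusted p = 0.180), *Ncan* (mean 1.02 CPM in *Hbb*-cKO, against 2.67 CPM in WT, log2 fold change -1.38, adjusted p = 0.323) and *Lyve1*, a hyaluronan receptor of lymphatic endothelium (-0.34, adjusted p = 0.536). Of the relatives of the 10 genes, 15 of 17 were tested, 10 were positive and the median was 0.04, with *Ncan*, *Ogn* (0.28, adjusted p = 0.470) and *Tnmd* (0.25, adjusted p = 0.620) first by p-value.

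The 8 cartilage collagens had a median of 0.08, 6 being positive, with *Col11a2*, *Col11a1* and *Col27a1* at 0.14, 0.14 and 0.13 (edgeR adjusted p = 0.917, 0.918 and 0.930). *Sox5*, *Sox9* and *Sox6* were at -0.07, 0.09 and -0.01 (adjusted p = 0.958, 0.968 and 0.993). Of the 10 genes for aggrecan proteases and their regulators, 8 were positive, with a median of 0.22. *Adamts4*, an aggrecanase, averaged 26.4 CPM in *Hbb*-cKO libraries, against 19.6 CPM in WT (log2 fold change 0.43, adjusted p = 0.371). *Mmp14*, a membrane-bound metalloproteinase, averaged 785 CPM in *Hbb*-cKO libraries, against 621 CPM in WT (0.34, adjusted p = 0.434), and *Adamts1* averaged 52.6 CPM in *Hbb*-cKO libraries, against 40.2 CPM in WT (0.39, adjusted p = 0.555). At an unadjusted p under 0.05, which 10.1% of all genes passed, these proteases had 2 of 10, the hyaluronan genes 2 of 14, the relatives 2 of 15 and the collagens and SOX genes none.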

How the data were processed

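Poly(A) RNA of P6 knee cartilage was sequenced on an Illumina HiSeq instrument. The authors deposited counts per gene, whole numbers not normalized, for 3 *Hbb*-cKO and 3 WT libraries. Per the submitters' processing notes, the tools were CASAVA 1.8, fastp 0.19.5 and HISAT2 2.1.0, with StringTie and edgeR also listed. Genome build, strand and counting settings are not stated there or in the methods, and gene positions equalled GENCODE M21 on GRCm38 for 99.4% of shared identifiers, from which exon lengths were taken.

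Of 31373 genes with a count, 17175 passed edgeR's filter (minimum count 10, minimum total 15). Genotypes were compared with edgeR 4.0.16 in R 4.3.3 (TMM, robust quasi-likelihood test, Benjamini-Hochberg adjustment, threshold 0.05), and again with library sizes proportional to *Acan*. Log2 CPM used a prior count of 2. Single values were compared by two-sided exact permutation tests. No pair of libraries agreed within sampling noise (chi-square per gene 22.2 to 60.8, 15 pairs). The alternatives were DESeq2 1.42.0, other scalings and filters, a replicate block and leaving out each library. The edgeR fits with TMM and relative to *Acan*, and the DESeq2 fit, were run on simulated counts. *Acan* was held at the same level in all simulated libraries, so that run cannot show how the fits behave where *Acan* varies. The other genes were drawn independently of each other, so it cannot show this for genes that move together either. The fit with *Acan* as a covariate was not simulated.

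The 10 genes and all lists were chosen with earlier results of these data known. The genes named are the 10, set relatives and markers, the 3 smallest p-values per list and the 8 genes closest to *Acan* in pattern. Protein sequences were not analysed here.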

Additional observations from a re-analysis of the deposited data

How the results depend on the processing

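With TMM scaling, none of the 10 genes was called under any alternative run other than DESeq2, which called 1 (*Chad*). Over all genes, the 18 calls became 41 at an adjusted p of 0.1, 236 in DESeq2, 60 without a filter and 4 with a replicate block, and ran from 1 (without WT replicate 1) to 39 (without WT replicate 3) when libraries were left out, with 6 without *Hbb*-cKO replicate 2 and 2 without *Hbb*-cKO replicate 3. Relative to *Acan*, the 28 calls became 13 in DESeq2, 18 relative to *Col2a1*, 49 without a filter, 13 with a replicate block and 3 with *Acan* as a covariate, an alternative added after the data were seen. Leaving out libraries gave 16 to 397 calls (397 without *Hbb*-cKO replicate 1), and 0 to 1 among the 9 genes.

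Same-numbered libraries did not deviate together (correlations of -0.03, -0.11 and -0.03), so the numbers were not read as pairs. With the replicate block, log2 fold changes turned to -0.033 for *Acan*, -0.12 for *Hapln1*, -0.18 for *Matn3* and -0.15 for *Cnmd*, and relative to *Col2a1* that of *Hapln1* was 0.019. With libraries left out, log2 fold changes ran from -0.25 to 0.38 for *Acan*, -0.48 to 0.42 for *Hapln1*, -0.085 to 0.56 for *Comp*, -0.79 to 0.19 for *Matn1*, -0.53 to 0.48 for *Matn3*, -0.81 to 0.15 for *Epyc*, -0.78 to 0.056 for *Ucma* and -0.47 to 0.47 for *Cnmd*. *Chad* (-1.09 to -0.75) and *Snorc* (-0.67 to -0.11) kept their direction. Relative to *Acan*, they ran from -0.25 to 0.0072 for *Hapln1*, -0.37 to 0.086 for *Matn3* and -0.29 to 0.084 for *Cnmd*. Where these values turned sign beyond the removal of a library, the cause was not tested. The smallest count of any of the 10 genes was 832.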
